A study of Mus musculus with 8 samples.

Results

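Array probes of 2 classes for mouse long intergenic non-coding RNAs (lincRNAs) were followed through cultured aortic smooth muscle cells, aorta and liver. They are the non-control probes whose identifiers begin with mouselincRNA, of which there are 649, and those that begin with MM9LINCRNAEXON, of which there are 83. Together they make 732 of the 60930 non-control probes on the array, and no measured value was used to choose them. Every identifier ends in _P1, which is left out below, and carries a plus or a minus sign just before it.

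LincRNAs are transcripts without a known protein product that arise between protein-coding genes, and many are known to be scarce and restricted to few tissues. Srf is a transcription factor that binds the promoters of smooth muscle contractile genes, and Myocd (myocardin) is its coactivator, which drives those genes in vascular smooth muscle.

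The study has 8 one-colour arrays in 5 groups. The 6 cultures are mouse aortic smooth muscle cells at passage 3. All were maintained at a higher serum content and kept in 10% serum for the experiment. They were harvested 3 days after adenovirus was added at a multiplicity of infection of 100. Wild-type cells received an empty adenovirus (2 arrays), Srf knockout cells received the same empty adenovirus (2 arrays), and wild-type cells received a Myocd adenovirus (2 arrays). Wild-type aorta and wild-type liver have 1 array each. How Srf was deleted, and the strain and age of the mice, are not given in the sources used here. Nothing in the labels tells separate cultures or animals from repeats of 1 culture, so every p-value below reflects the spread of these arrays alone, possibly a technical one.

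Gene names, sequences and genome positions of these probes were not analysed here, so each lincRNA is named by its probe alone. No probe was assigned to Srf, Myocd or a cell type marker, and the group labels were not checked against them. Slide 1 carried the 4 arrays of cells with empty virus, and slide 2 carried both tissues and the Myocd cells. Slide and Myocd treatment therefore cannot be told apart, nor slide and tissue where a tissue is set beside wild-type or Srf knockout cells. The knockout comparison and the comparison of aorta with liver each lie within 1 slide. The arrays' 75th percentile of processed intensity lay between 452 and 498 in the cultures and was 364 in aorta and 165 in liver. A level is the log2 intensity minus that percentile of the same array, so that 0 stands for the percentile itself. Single probes are not ranked by level against each other, since probes differ in how they bind, and classes are compared by their medians as signal on the array only. On this scale the median of the 308 negative control spots was -7.35 to -6.89 in the cultures, -6.57 in aorta and -5.68 in liver.

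Mouse lincRNA probes were detected less often than other probes on every array. A probe counts as detected where the scanner software called its signal well above background. In wild-type cells 346 and 299 of the 732 probes were detected, in Srf knockout cells 328 and 378, in Myocd cells 294 and 293, in aorta 305 and in liver 318. The highest of these shares was 51.6%, while the lowest share of the 60198 other probes on any array was 62.4%. Wild-type and Srf knockout arrays overlapped, and both Myocd arrays lay just below them.

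Both prefixes were detected less often than other probes on every array, mouselincRNA the less of the 2. Of the mouselincRNA probes, 38.2% to 50.1% were detected. Of the MM9LINCRNAEXON probes, 50.6% to 63.9% were. Probes whose identifiers begin with humanlincRNA, 1104 in number on this mouse array, were detected at 35.1% to 46.1%. Among 15 probes whose identifiers begin with MM9NEGATIVE, 0 or 1 was detected on each array.

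**Figure D1:**
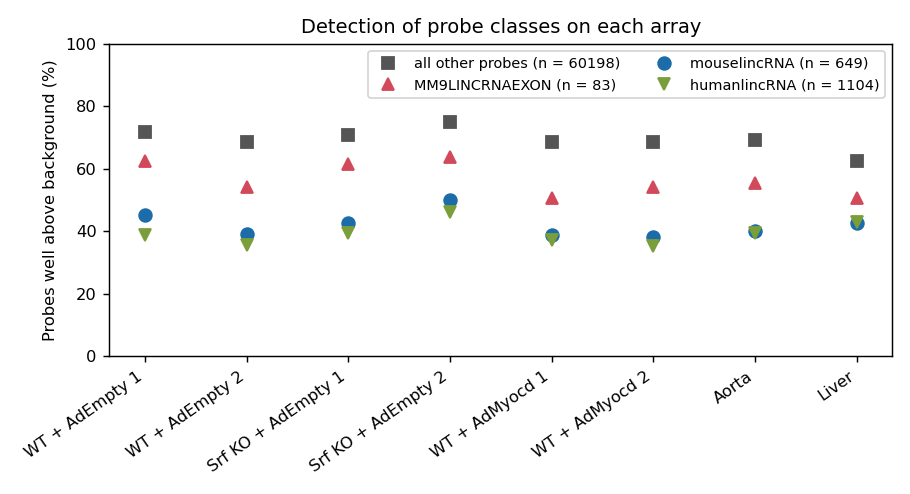
Share of probes well above background (vertical axis, percent) on each of the 8 arrays (horizontal axis) for the mouselincRNA, MM9LINCRNAEXON and humanlincRNA prefixes and for all probes outside the mouse lincRNA classes. MM9LINCRNAEXON probes lie between 50.6% and 63.9%, above the mouselincRNA probes and below the other probes on every array.

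Across the 8 arrays, 218 of the 732 probes (29.8%) were detected on all and 268 (36.6%) on none. The same shares were 52.2% and 16.1% for other probes. Of the mouselincRNA probes, 28.5% were detected on all arrays and 38.1% on none. For MM9LINCRNAEXON probes the shares were 39.8% and 25.3%.

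Detection on both arrays of 1 cultured group and on no other array was seen for 1 probe in each group. These were mouselincRNA1300- in wild-type cells, mouselincRNA0119- in Srf knockout cells and mouselincRNA0440+ in Myocd cells. Liver alone had 18 such probes, of which 16 were mouselincRNA and 2 MM9LINCRNAEXON, and aorta alone had 8, all mouselincRNA. A further 7 probes were detected in both tissues and in no culture, and 5 on all 6 cultured arrays and in neither tissue. As shares of the 732 probes, liver alone made 2.46%, aorta alone 1.09% and both tissues without cultures 0.956%, near the 2.05%, 1.30% and 0.915% of other probes. The 1 probe of each cultured group is 0.137%, against 0.0847% of other probes for wild-type, 0.407% for Srf knockout and 0.228% for Myocd cells. All cultures without either tissue made 0.683%, against 2.16%.

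The median level of the 732 probes was -5.10 and -5.36 in wild-type cells, -5.09 and -4.96 in Srf knockout cells, -5.21 and -5.12 in Myocd cells, -4.86 in aorta and -3.80 in liver. The median lay above that of the negative control spots on every array. Other probes had medians of -3.02 to -2.78 in the cultures, -2.53 in aorta and -2.31 in liver. The MM9LINCRNAEXON medians, -4.64 to -4.11 in the cultures, were above those of mouselincRNA probes, -5.44 to -5.01, on every array. Levels of dim probes follow the arrays' background, so the higher liver median of all 732 probes stands beside a higher level of the negative control spots, and the part of the latter in it was not tested.

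A large share of the probes come in pairs whose identifiers differ only in the sign, 329 pairs in all, with 74 probes left over. The sources used here do not give the meaning of the sign, and none is read from it. In these counts a probe is detected in a group if it was detected on every array of that group. Both probes of a pair were so detected for 48 pairs in wild-type cells, 58 in Srf knockout cells, 42 in Myocd cells, 52 in aorta and 59 in liver. One probe alone was detected for 46.2% to 51.1% of pairs. Of the plus probes detected in wild-type cells, 40.3% had a detected minus probe, against 40.7% of all minus probes in pairs. The same shares were 43.0% and 45.0% in Srf knockout cells, 37.5% and 37.7% in Myocd cells, 39.4% and 41.9% in aorta and 42.1% and 44.4% in liver. Over all pairs a detected plus probe thus did not come with a higher share of detected minus probes in any group, which also holds for the 317 mouselincRNA pairs in 4 of the groups, while in Myocd cells their shares were 37.0% and 36.9%. The 12 MM9LINCRNAEXON pairs went the other way in all groups but Myocd cells, as in wild-type cells, where 5 of 6 detected plus probes had a detected minus probe and 9 of 12 minus probes were detected.

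Srf knockout cells were compared with wild-type cells over 339 lincRNA probes, 288 mouselincRNA and 51 MM9LINCRNAEXON. These are the ones detected throughout at least 1 of the cultured groups, 46.3% of the 732, against 72.7% of other probes. A probe can pass this filter through the group where it is high, so the counts describe the tested probes and not the whole class. Where a probe was detected in only 1 of the groups compared, its p-value is no separate support for the difference. In the knockout 27 of the 339 probes rose and 5 fell (limma, adjusted p under 0.05), which is 9.44% called against 20.6% of all 44081 tested probes. Rises made up 7.96% of the lincRNA probes against 12.2% of all tested probes, and falls 1.47% against 8.40%. By prefix, 20 rose and 3 fell among mouselincRNA probes (7.99% called), and 7 rose and 2 fell among MM9LINCRNAEXON probes (17.6% called). Classes of similar detection had similar shares, with 7.57% of 436 tested humanlincRNA probes and 9.50% of 379 probes beginning with ASMM10UP called, so the low share is not particular to mouse lincRNA probes. The median log2 change of the 339 probes was 0.17, beside 0.07 over all tested probes. With quantile normalization the median of all tested probes was -0.03 and that of the lincRNA probes 0.00, with 14 rises and 8 falls.

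Probes of similar level were set beside them by splitting the tested probes into 6 bands of mean level over the cultured arrays. Weighted to the bands that the lincRNA probes fill, 18.5% of other tested probes were called in the knockout, beside the 9.44% of the lincRNA probes. Between -5 and -4 the shares were close, at 11.1% of 90 lincRNA probes and 14.2% of other probes. Between -3 and -2 they were 4.29% of 70 and 17.5%, and between -2 and 0 they were 10.6% of 47 and 23.1%. Of the 22 lincRNA probes at 0 or above, 0 were called by limma, 0 had an unadjusted p under 0.05 and 0 were called with a trended, robust fit, where 24.1% of other probes were called. Between -2 and 0 the median absolute log2 change was 0.17 in lincRNA probes and 0.35 in other probes, with median residual SDs of 0.14 and 0.15. At 0 or above it was 0.34 and 0.36, with residual SDs of 0.24 and 0.16. The MM9LINCRNAEXON probes taken alone stood at 17.6% called against a weighted 17.7% of other probes.

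**Figure D2:**
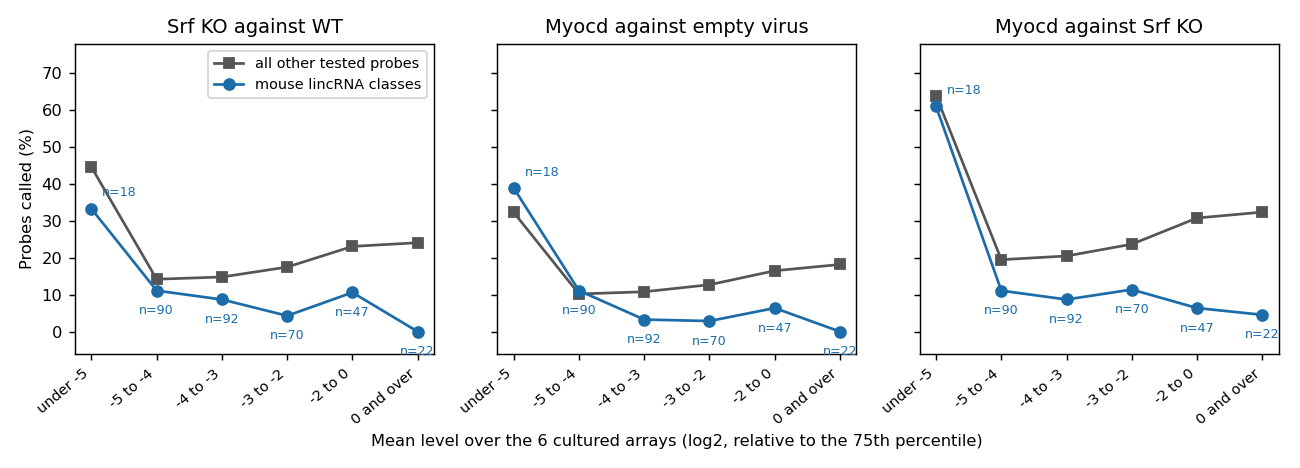
Share of tested probes called by limma at an adjusted p under 0.05 (vertical axis, percent) by band of mean level over the 6 cultured arrays (horizontal axis), for the mouse lincRNA classes (blue circles, with the number tested) and all other tested probes (grey squares), in 3 comparisons. In the knockout panel the blue line lies below the grey one in every band, and 0 of 22 lincRNA probes at 0 or above are called.

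Among the probes that rose in the knockout, MM9LINCRNAEXON11009- had levels of -3.86 and -3.95 in wild-type cells, -2.47 and -1.74 in Srf knockout cells, -3.88 and -3.62 in Myocd cells, -3.88 in aorta and -2.82 in liver. The knockout arrays stood above all other cultured arrays and did not overlap with them. In log2 it rose by 1.81 (SE 0.26, limma adjusted p = 0.00676). The call held under all 16 alternative settings, where normexp, another background correction, gave 0.91. Leaving out either array of the cultured group not compared gave the same fit as using only the 2 groups compared. Tallies of alternatives here and below count this fit more than once.

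MM9LINCRNAEXON10888- had levels of -2.69 and -2.83 in wild-type cells, -1.21 and -1.49 in Srf knockout cells, -1.45 and -1.39 in Myocd cells and -1.88 in aorta, and was not detected in liver. Both manipulated groups stood above wild type and overlapped each other. It rose by 1.41 in the knockout (SE 0.16, limma adjusted p = 0.00291) and by 1.34 with Myocd (SE 0.16, limma adjusted p = 0.00456), and both comparisons share the wild-type arrays.

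mouselincRNA0901- rose by 2.23 (SE 0.47, limma adjusted p = 0.0231), with levels of -4.49 and -2.94 in wild-type cells against -1.43 and -1.54 in the knockout. The gap between its wild-type replicates is the widest among called mouselincRNA probes. The call ended without Srf knockout replicate 1 (limma adjusted p = 0.122) or 2 (0.0905) and with no filter on dim probes (0.0535). mouselincRNA1397- rose by 1.43 (SE 0.33, limma adjusted p = 0.0309), from -4.33 and -3.29 to -2.30 and -2.46. That call held in 8 of 16 alternatives. Among those that ended it were quantile normalization (limma adjusted p = 0.0619) and the fits without either Srf knockout array (0.157 and 0.106) or without either Myocd array (0.0578 each). Both probes thus had lower and more uneven wild-type levels than knockout levels.

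Other rises started from wild-type signal that was not well above background, as in 11 of the 27. Their folds are lower bounds, taken against the lowest signal among detected probes where that was higher than the probe's own. MM9LINCRNAEXON12036- was not detected in wild-type cells and had levels of -3.26 and -3.33 in the knockout, at least 2.77-fold higher (limma adjusted p = 0.0363). It kept the call in 7 of 14 alternatives and lost it, among others, without either Srf knockout array (0.159 and 0.124) or either Myocd array (0.0566 each). mouselincRNA1010- reached -4.21 and -3.62 in the knockout, at least 1.94-fold higher (limma adjusted p = 0.0327), and was called in 4 of 15 alternatives, not by normexp (0.216) and not without wild-type replicate 1 (0.0882), Srf knockout replicate 2 (0.138) or either Myocd array (0.0628 each). Each of these 2 calls was thus lost in at least as many alternatives as it was kept.

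mouselincRNA0119-, the probe detected in Srf knockout cells only, had knockout levels of -3.64 and -4.50. Its wild-type levels of -7.43 and -7.18, its Myocd levels of -7.00 and -6.89 and its tissue levels of -6.55 and -5.70 were close to those of the negative control spots. It was at least 1.90-fold higher in the knockout than in wild-type cells (limma adjusted p = 0.00121). mouselincRNA0725- was likewise not detected in wild-type or Myocd cells and stood at -4.53 and -4.54 in the knockout, at least 1.38-fold higher (limma adjusted p = 0.00199), but it was also detected in aorta, at -1.98, and in liver, at -3.09. Among the cultures both were detected in the knockout alone, passed the filter through it and were singled out after their values were seen. Their p-values are therefore no separate support for the difference.

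The 5 falls in the knockout were those of mouselincRNA1512-, mouselincRNA1300-, mouselincRNA0086+, MM9LINCRNAEXON11010+ and MM9LINCRNAEXON11109-. MM9LINCRNAEXON11010+ fell by 0.85 (SE 0.16, limma adjusted p = 0.0154), from -0.38 and -0.65 in wild-type cells to -1.42 and -1.31. MM9LINCRNAEXON11109- fell by 0.81 (SE 0.14, limma adjusted p = 0.0124), from -2.66 and -2.74 to -3.56 and -3.46. Both lost the call without Srf knockout replicate 1 (0.124 and 0.112) or 2 (0.0753 and 0.0707). mouselincRNA0086+, named after its value was seen, fell from -4.13 and -4.43 to below detection, at least 1.62-fold lower (limma adjusted p = 0.0362).

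The count of 32 called probes rested on few arrays. Without Srf knockout replicate 1 it was 10, without replicate 2 it was 11, without wild-type replicate 2 it was 53, and without either Myocd array it was 19, where a lone array was assumed to vary like the others. The share of all tested probes called moved in the same direction in each of these fits. Within slide 1 alone, which holds these 2 groups, 15 rose and 4 fell. There 14.6% of all tested probes were called, against 20.6% with all 6 cultured arrays. The robust SD of the difference between replicates over tested probes was 0.43 in wild-type cells, 0.22 in Srf knockout cells and 0.22 in Myocd cells.

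Myocd adenovirus raised 20 of the 339 lincRNA probes and lowered 5 against empty adenovirus in wild-type cells (limma, adjusted p under 0.05). The 7.37% called stand beside 15.2% of all tested probes, with 5.90% against 7.99% for rises and 1.47% against 7.20% for falls. By prefix, 17 rose and 5 fell among mouselincRNA probes, and 3 rose and 0 fell among MM9LINCRNAEXON probes. For the latter, limma gave 6 falls at an unadjusted p under 0.05 and the trended, robust fit 0 called falls. Of the humanlincRNA probes 5.28% were called and of the ASMM10UP probes 9.76%. In other tested probes weighted to the same bands 13.4% were called. The lincRNA share was 38.9% of 18 probes against 32.3% below -5, and 11.1% against 10.2% between -5 and -4. Such dim probes can pass the filter through the group where they are high. Their calls are then partly set by the filter, and no excess is read from these bands. In the other bands the lincRNA share lay below that of other probes, as between -3 and -2, at 2.86% against 12.7%.

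The highest lower bound with Myocd was that of mouselincRNA0118-. Its levels were -7.19 and -7.01 in wild-type cells and -7.01 and -7.31 in Srf knockout cells, none of them detected, against -1.0 and -1.03 in Myocd cells, -2.41 in aorta and -4.84, not detected, in liver. The 2 Myocd arrays and aorta thus stood apart from the remaining arrays. It was at least 15.8-fold higher with Myocd than with the empty virus (limma adjusted p = 5.01e-05) and at least 15.6-fold higher than in the knockout (limma adjusted p = 1.99e-05). In aorta it was at least 6.02-fold above wild-type cells. All 14 alternatives kept both calls, with a log2 change of 2.19 against wild type by normexp. The probe passed the filter through the Myocd arrays alone.

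mouselincRNA1512- moved in opposite directions in the knockout and with Myocd. Its levels were -0.93 and -1.06 in wild-type cells, -2.16 and -2.36 in Srf knockout cells, 1.65 and 1.43 in Myocd cells, 0.92 in aorta and -0.87 in liver. The cultured groups did not overlap, and aorta lay between wild-type and Myocd cells. It fell by 1.27 in the knockout (SE 0.16, limma adjusted p = 0.00441), rose by 2.53 with Myocd (SE 0.16, limma adjusted p = 0.000506), and stood 3.81 higher in Myocd cells than in the knockout (SE 0.16, limma adjusted p = 5.41e-05). The first and second of these share the wild-type arrays. All 3 calls held in each of 16 alternatives, with adjusted p-values of 0.00138 to 0.0408 for the fall.

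**Figure D3:**
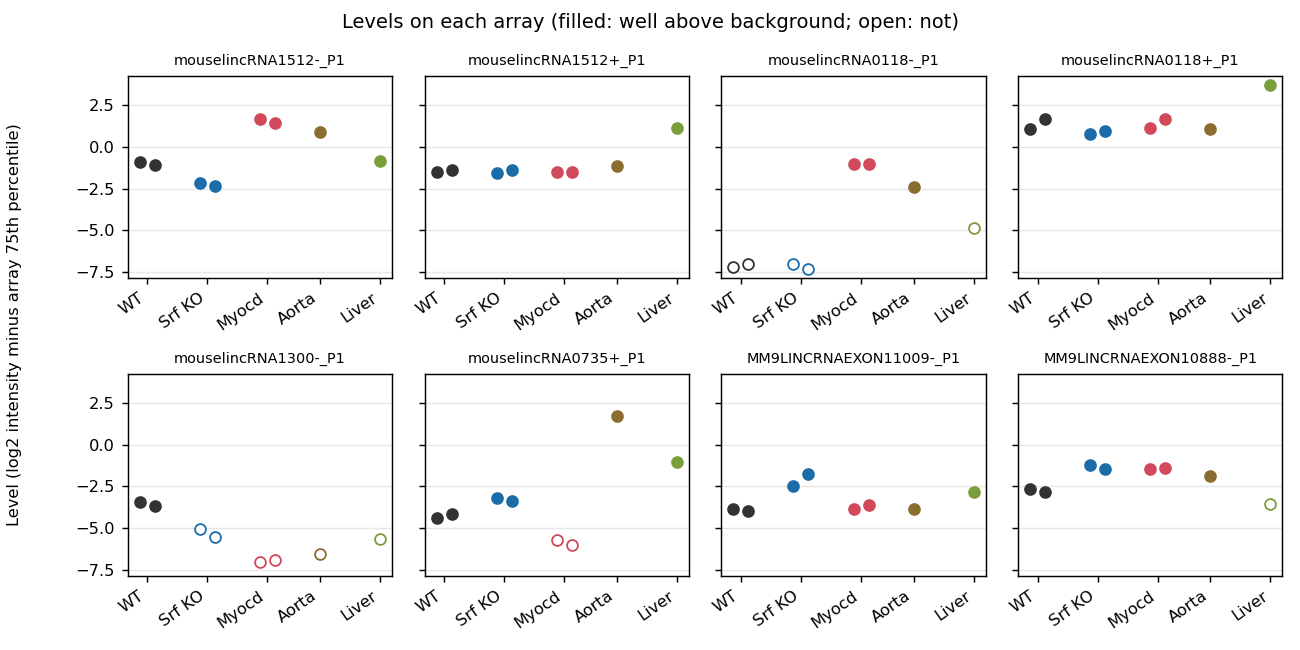
Level on each array (vertical axis, log2 intensity minus the array's 75th percentile) of 8 lincRNA probes in wild-type, Srf knockout and Myocd cells (2 arrays each), aorta and liver (1 array each). Filled circles are well above background and open circles are not. mouselincRNA1512- and mouselincRNA0118- differ between the cultured groups, while the probes of the same number with a plus sign lie at -1.59 to -1.37 and at 0.80 to 1.69 in the cultures.

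mouselincRNA0440+, the probe detected in Myocd cells only, had levels of -3.30 and -3.58 there. On all other arrays it lay between -7.35 and -5.59. It was at least 2.95-fold higher with Myocd than with the empty virus (limma adjusted p = 0.000253). It passed the filter through the Myocd arrays alone and was singled out after its values were seen, so that p-value is no separate support. mouselincRNA0044- was not detected in wild-type cells, at -5.91 and -5.22, and was detected in the knockout, at -4.75 and -4.49, and with Myocd, at -3.33 and -3.30. It was at least 3.20-fold higher with Myocd (limma adjusted p = 0.00352) and called in all 15 alternatives there. Its rise in the knockout, at least 1.30-fold (limma adjusted p = 0.0453), held in 3 of 15 and ended, among others, by normexp (0.186), without wild-type replicate 1 (0.0676), without either Srf knockout array (0.139 and 0.195) and without either Myocd array (0.0832 each).

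mouselincRNA0072- rose by 1.60 with Myocd (SE 0.29, limma adjusted p = 0.0178), from -4.56 and -3.88 to -2.75 and -2.49. Without Myocd replicate 1 or 2 that call ended (0.0662 and 0.106), while its difference of 2.21 from the knockout (SE 0.29, limma adjusted p = 0.00282) was called in all 15 alternatives.

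The MM9LINCRNAEXON rises with Myocd were those of MM9LINCRNAEXON10888-, given above, MM9LINCRNAEXON10477+ and MM9LINCRNAEXON11660+. MM9LINCRNAEXON10477+ rose by 1.46 (SE 0.28, limma adjusted p = 0.0214), from -3.75 and -2.96 to -1.93 and -1.86, with Srf knockout levels of -3.49 and -3.16. That call held in 12 of 16 alternatives and ended without Myocd replicate 1 (0.0913) or 2 (0.113), with no filter on dim probes (0.0524) and by normexp (0.0768), where the change was 0.63. MM9LINCRNAEXON11660+ stood at -2.20 and -2.14 with Myocd, while its wild-type replicates, at -4.14 and -6.82, have the widest gap among called MM9LINCRNAEXON probes and only the first was detected. Its fitted rise of 3.31 (SE 0.82, limma adjusted p = 0.0472) includes the wild-type array that did not detect it. Without that array, wild-type replicate 2, it was 1.97 (limma adjusted p = 0.0286), without replicate 1 it was 4.64, and by normexp 1.09, so its size is uncertain. The call held in 6 of 14 alternatives and ended, among others, without either Myocd array (0.153 and 0.177) or either Srf knockout array (0.0779 each). It was not detected in the knockout or in either tissue.

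All 5 falls with Myocd ended below detection. They were those of mouselincRNA1300-, mouselincRNA0735+, mouselincRNA1147-, mouselincRNA0321+ and mouselincRNA0293+. The last 3 were named after their values were seen. mouselincRNA1147- was at least 1.28-fold lower (limma adjusted p = 0.0284), and the bounds of mouselincRNA0321+ and mouselincRNA0293+ were smaller (limma adjusted p = 0.00326 and 0.00382).

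mouselincRNA1300- had levels of -3.44 and -3.66 in wild-type cells. It lay at -5.09 and -5.57 in the knockout, -7.04 and -6.91 with Myocd, -6.57 in aorta and -5.65 in liver, and was detected on none of these 6 arrays. It was at least 2.69-fold lower in the knockout (limma adjusted p = 0.00301) and at least 2.26-fold lower with Myocd (limma adjusted p = 0.000416), 2 comparisons that share the wild-type arrays. Both calls held in all 14 alternatives, and the probe passed the filter through the wild-type arrays alone. Between Myocd and knockout cells neither group was detected, so no fold is given for that call (limma adjusted p = 0.00234), which ended by normexp (0.092).

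mouselincRNA0735+ was higher in the knockout and lower with Myocd. Its levels were -4.43 and -4.14 in wild-type cells, -3.23 and -3.36 in Srf knockout cells, -5.73 and -6.02, not detected, in Myocd cells, 1.70 in aorta and -1.02 in liver. Both tissues stood above all 6 cultures. It rose by 0.99 in the knockout (SE 0.18, limma adjusted p = 0.0147), a call that ended without Srf knockout replicate 1 (0.112) or 2 (0.0701) and by normexp (0.0552). With Myocd it was at least 1.36-fold lower than with the empty virus (limma adjusted p = 0.0038, and 0.134 by normexp) and at least 2.70-fold lower than in the knockout (limma adjusted p = 0.000252).

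The count of called probes with Myocd, 25 over all arrays, was 16 in the fit that left out Myocd replicate 1 and 13 in the fit that left out replicate 2. With wild-type replicate 1 or 2 left out it was 41 or 43. In each of these fits the share of all tested probes called moved in the same direction. The median log2 change over the 339 probes was 0.04, beside -0.02 over all tested probes, and both lay below 0 by quantile normalization (-0.01 and -0.06). The negative control spots stood 0.27 higher with Myocd than in wild-type cells. The part of the latter in the rises of dim probes was not tested.

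Between Myocd and Srf knockout cells, 13 lincRNA probes were higher with Myocd and 28 lower (limma, adjusted p under 0.05). That is 12.1% called against 28.0% of all tested probes, with 3.83% against 11.7% higher and 8.26% against 16.2% lower. By prefix, 10 were higher and 22 lower among mouselincRNA probes, and 3 higher and 6 lower among MM9LINCRNAEXON probes. Other tested probes weighted to the same bands were called at 25.4%, humanlincRNA probes at 10.3% and ASMM10UP probes at 14.2%. By normexp 13 were higher and 12 lower, and by quantile normalization 16 and 23, so the excess of lower probes was not seen by normexp.

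Beyond mouselincRNA0118-, mouselincRNA1512- and mouselincRNA0072-, the higher group held MM9LINCRNAEXON11660+, at least 7.0-fold higher (limma adjusted p = 0.0104), a call that ended without Srf knockout replicate 1 (0.0655) or Myocd replicate 2 (0.0528). It also held MM9LINCRNAEXON10477+, higher by 1.43 (SE 0.28, limma adjusted p = 0.013), and MM9LINCRNAEXON11109-, higher by 0.80 (SE 0.14, limma adjusted p = 0.00856). The call of the former held in 12 of 16 alternatives and ended by normexp (0.0988, with a change of 0.52) and without Srf knockout replicate 1 (0.0862) or Myocd replicate 1 (0.0567) or 2 (0.0705). That of the latter ended without Srf knockout replicate 1 (0.0801) or 2 (0.0535) or Myocd replicate 2 (0.0693).

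On the lower side, MM9LINCRNAEXON11009- was lower by 1.65 (SE 0.26, limma adjusted p = 0.00587) and called in all 16 alternatives. mouselincRNA0901- was lower by 2.04 (SE 0.47, limma adjusted p = 0.0226) and mouselincRNA1397- by 1.40 (SE 0.33, limma adjusted p = 0.0251), and both calls ended without any 1 of the 4 arrays compared (adjusted p of 0.0851 to 0.107 and 0.0892 to 0.125) and with no filter on dim probes (0.0508 and 0.0546). MM9LINCRNAEXON11125+ was lower by 0.94 (SE 0.18, limma adjusted p = 0.0118), with levels of -3.37 and -3.30 in the knockout and -4.08 and -4.47 with Myocd, and the call ended without Srf knockout replicate 1 (0.0697) or 2 (0.0781) or Myocd replicate 2 (0.075) and by normexp (0.0546). MM9LINCRNAEXON11382- fell below detection with Myocd, at least 1.56-fold lower (limma adjusted p = 0.0124), and lost the call without the same arrays (0.0897, 0.0605 and 0.0739) and by normexp (0.101).

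The count of 41 rose to 69 when either wild-type array was left out. It was 13 without the first and 22 without the second Srf knockout array, and 27 without the first and 23 without the second Myocd array. All tested probes likewise had their share called move in the same direction in these fits. Each of the 2 groups lies on its own slide, so group and slide cannot be told apart here.

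Across the 3 comparisons 60 lincRNA probes were called at least once (17.7%, against 36.8% of all tested probes) and 5 in all 3 (1.47%, against 3.82%). The 5 were mouselincRNA1512-, mouselincRNA1300-, mouselincRNA0735+, mouselincRNA0044- and mouselincRNA0109+. mouselincRNA0109+ was detected in no wild-type or Myocd array, at -6.61 and -7.01 and at -5.84 and -5.34, but in the knockout, at -4.61 and -4.70, and in liver, at -2.56. It was at least 1.27-fold higher in the knockout than in wild-type cells (limma adjusted p = 0.0023), a call that ended by normexp (0.0763). No fold is given for its Myocd call (limma adjusted p = 0.0203), where neither group was detected, and which held in 8 of 14 alternatives. It ended by normexp (0.309), with the trended, robust fit (0.0731), with only the 2 groups compared (0.0509) and without either Srf knockout array (0.0509 each) or Myocd replicate 2 (0.109). With Myocd it was at least 1.05-fold lower than in the knockout (limma adjusted p = 0.0278), a call that held in 6 of 14 alternatives. Its highest adjusted p was 0.401, by normexp, and it also ended with the trended, robust fit (0.114) and without Srf knockout replicate 1 (0.141) or 2 (0.106) or Myocd replicate 1 (0.134). mouselincRNA0044- was higher by 1.30 with Myocd than in the knockout (SE 0.25, limma adjusted p = 0.0117), but not without Srf knockout replicate 1 (0.0816) or Myocd replicate 1 (0.0561) or 2 (0.0651). The comparisons share arrays, so their calls are not independent of each other.

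In 70 pairs of lincRNA probes both probes were tested. Pairs with both probes called numbered 0 in each of the 3 comparisons by limma, and 0 with the trended, robust fit. At an unadjusted p under 0.05 by limma there were 2 such pairs in the knockout, 1 with Myocd and 3 between Myocd and the knockout. Exactly 1 probe was called in 7, 11 and 15 pairs. With few probes called at all, few pairs could have both called. Among 93 pairs of humanlincRNA probes 1, 0 and 2 had both called. Across the 70 pairs, the Pearson correlation between the log2 changes of the plus and minus probes was 0.03 in the knockout, -0.04 with Myocd and 0.12 between them, and Spearman's rho was 0.05, 0.04 and 0.34, values that describe pairs measured on the same arrays.

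Beside mouselincRNA1512-, its partner mouselincRNA1512+ stayed between -1.59 and -1.37 on all 6 cultured arrays and changed by -0.05 in the knockout and by -0.05 with Myocd (SE 0.15 for each, limma adjusted p = 0.822 and 0.845). mouselincRNA0118+ had levels of 0.80 to 1.69 in the cultures and changed by 0.03 with Myocd (SE 0.27, limma adjusted p = 0.947), beside the rise of at least 15.8-fold of mouselincRNA0118-. mouselincRNA0440- stayed between -2.63 and -2.02 and changed by 0.06 with Myocd (SE 0.26, limma adjusted p = 0.908). In liver these 3 pair partners stood higher than in aorta, by 4.87-fold, 6.29-fold and 4.83-fold.

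The partner of a called probe was often not measurable. Of the 32 probes called in the knockout 24 had a partner, which was not tested in 17 cases and detected on no array in 12. With Myocd 22 of 25 had one, which was not tested in 11 cases, and between Myocd and the knockout 35 of 41 had one, which was not tested in 20.

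**Figure D4:**
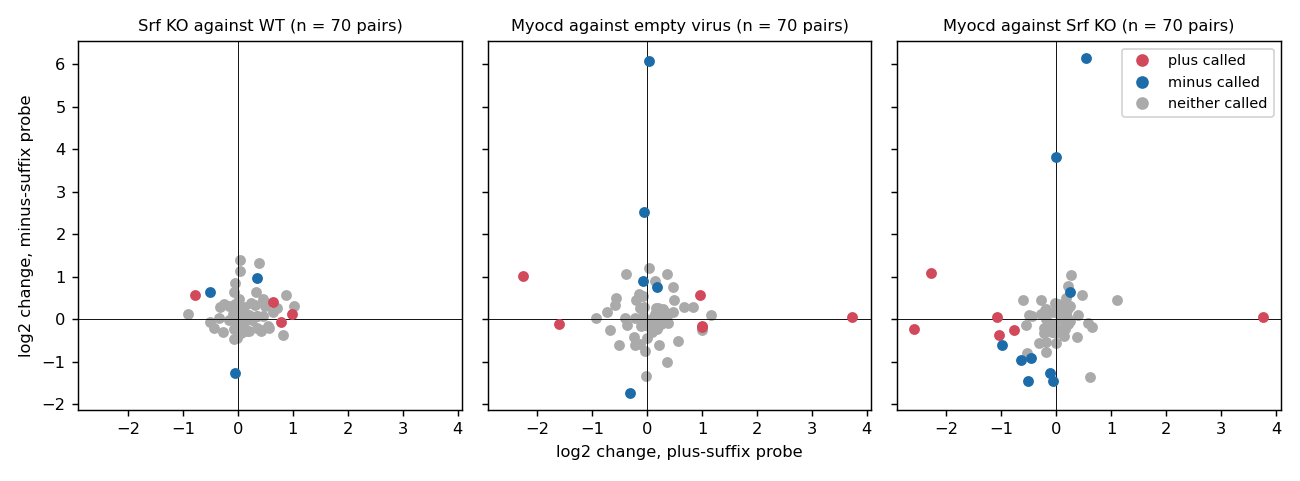
Log2 change of the plus-suffix probe (horizontal axis) and the minus-suffix probe (vertical axis) in the 70 pairs with both probes tested, in 3 comparisons. Red points have the plus probe called by limma at an adjusted p under 0.05, blue points the minus probe and grey points neither. In 0 pairs are both probes called, and the change of a probe that was not detected in 1 of the groups follows the background there.

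Aorta and liver, with 1 array each and no replicate check, differed at least 4-fold for 67 of 360 lincRNA probes detected in either. Only 4 of them were higher in aorta (1.11%) and 63 were higher in liver (17.5%), while over all 45133 probes detected in either 12.3% were higher in aorta and 13.3% in liver. The mouselincRNA prefix had 4 and 52 of 311, and MM9LINCRNAEXON had 0 and 11 of 49. For 262 probes detected in both tissues the median log2 difference, aorta minus liver, was -1.24, against -0.63 for other probes. It was -0.94 against -0.62 by normexp, and -1.19 against -0.44 by quantile normalization, so the lincRNA median lay further toward liver under each of these scalings. The humanlincRNA probes lay toward liver as well, with a median of -1.25, 0.768% higher in aorta and 22.8% higher in liver, so the shift is not particular to mouse lincRNA probes. The negative control spots differed by -0.88 in the same direction on the main scale, and their part in the difference was not tested. By normexp 2 probes were higher in aorta and 14 in liver.

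In bands of the mean level in the 2 tissues, the share of lincRNA probes that were higher in liver grew from 5.26% of 38 between -5 and -4 to 34.3% of 35 at 0 or above. Other probes went from 6.92% to 15.9% over the same bands. The bands rest on the same aorta and liver values that are compared, so the growth across them is not independent of the differences. The share higher in aorta was 5.71% of lincRNA probes at 0 or above, against 13.8% of other probes.

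The probe furthest apart was MM9LINCRNAEXON11939-, with a level of 6.36 in liver, 0.27 in aorta and -0.07 to 0.27 on the 6 cultured arrays, so liver was 68.2-fold above aorta. mouselincRNA0453+ stood at 5.99 in liver and 0.68 in aorta, a 39.8-fold difference, and at -0.81 to 0.78 in the cultures. mouselincRNA0706+ was 17.4-fold higher in liver (3.65 against -0.47), and MM9LINCRNAEXON10569- was 12.5-fold higher (1.14 against -2.51). In each of these 4 probes liver stood above all 7 remaining arrays.

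The 4 probes higher in aorta were mouselincRNA1397-, mouselincRNA1235-, mouselincRNA0735+ and mouselincRNA0413+. mouselincRNA1397- had a level of 0.12 in aorta and was not detected in liver, at least 12.5-fold lower. mouselincRNA1235- had 2.79 in aorta and -0.10 in liver, a 7.43-fold difference. mouselincRNA0735+ was 6.59-fold higher in aorta, and mouselincRNA0413+, named after its value was seen, 4.93-fold. All 4 were also at least 4-fold above wild-type cultured cells.

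Aorta was at least 4-fold above the mean of the wild-type cultures for 25 of 394 lincRNA probes detected in either (6.35%) and below it for 1 (0.254%). Over all 47279 probes the shares were 10.1% and 7.92%. Aorta and the wild-type cultures lay on different slides, so tissue and slide cannot be told apart here. By prefix, 21 probes were higher in aorta and 1 lower among mouselincRNA, and 4 higher and 0 lower among MM9LINCRNAEXON. The median log2 difference over 273 probes detected in both was 0.52, against 0.16 for other probes, and was 0.13 against -0.04 by quantile normalization. It was 0.56 in humanlincRNA probes, of which 6.68% were higher and 0.196% lower in aorta. The negative control spots stood 0.63 higher in aorta on the main scale, and their part in this was not tested. By normexp 7 probes were higher and 0 lower.

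The furthest apart was mouselincRNA0735+, 63.4-fold higher in aorta than in wild-type cells. It was followed by MM9LINCRNAEXON11125+, which had 0.41 in aorta, 0.04 in liver and -4.73 and -4.57 in wild-type cells, a 33.3-fold difference from the cultures. mouselincRNA1235- was 23.8-fold higher in aorta, against -1.51 and -2.05 in wild-type cells, and mouselincRNA1397- was 15.3-fold higher. All 4 were also lower in Myocd cells than in the knockout, with mouselincRNA1235- lower by 1.26 (SE 0.23, limma adjusted p = 0.00949). Over all tested probes 16.2% were lower there. The 4 were picked as the furthest apart, and mouselincRNA0118-, also at least 4-fold higher in aorta, was called higher with Myocd than in the knockout. The remaining probes higher in aorta were not counted for this, so no shared pattern is read. The 1 probe lower in aorta was mouselincRNA1453+, with -4.11 in aorta against -1.11 and -0.68 in wild-type cells, a 9.31-fold difference.

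**Figure D5:**
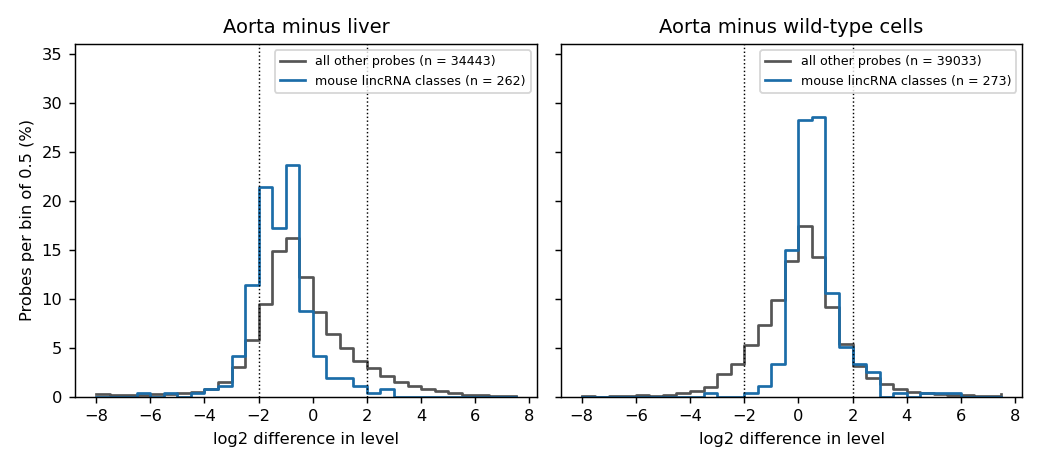
Distribution of the log2 difference in level between aorta and liver (left) and between aorta and the mean of the wild-type cultures (right) over probes detected on both sides, as the percent of probes per bin of 0.5, for the mouse lincRNA classes (blue) and all other probes (grey). Dotted lines mark 4-fold. The median of the lincRNA probes is -1.24 on the left, against -0.63 for other probes, and 0.52 on the right, against 0.16.

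The 3 probes of each prefix with the most signal in wild-type cells had no call in the knockout or with Myocd. mouselincRNA0161- had levels of 5.82 and 6.11 in wild-type cells, 6.36 and 6.25 in Srf knockout cells, 5.83 and 5.59 in Myocd cells, 8.02 in aorta and 7.67 in liver. It was lower with Myocd than in the knockout by 0.60 (SE 0.17, limma adjusted p = 0.0491), the only call among the 22 probes with a mean level of 0 or above in any of the 3 comparisons. mouselincRNA0772- lay between 3.66 and 5.24 in the cultures and at 2.36 in liver, and mouselincRNA1188- between 3.27 and 3.98 and at 4.96.

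MM9LINCRNAEXON10664+ lay between 7.18 and 8.05 in the cultures, at 7.26 in aorta and at 9.60 in liver. MM9LINCRNAEXON10490+ lay between 2.11 and 2.70 in the cultures, at 2.58 in aorta and at 5.14 in liver. MM9LINCRNAEXON11569- lay between 0.72 and 1.45 in the cultures, at 3.76 in aorta and at 2.80 in liver. Liver thus stood above the cultures for all 3, and aorta for the last alone beyond the spread of the cultured arrays.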

How the data were processed

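Per the labels' protocols, total RNA was labelled with Cy3 using random primers. Per the file headers and the submitters' processing notes, the authors read the arrays with Agilent Feature Extraction 11.0.1.1, whose processed intensity per spot is analysed here. The authors also deposited log2 values with unstated normalization, used as an alternative. Outlier-flagged spots were left out, spots of one probe averaged, and each array's 75th percentile over probes subtracted. Tested were probes that the scanner called well above background throughout 1 or more cultured groups, with limma 3.58.1 in R 4.3.3 over all 6 cultured arrays (3 residual degrees of freedom, two-sided, Benjamini-Hochberg over 44081 probes, no replicate block), and the fit was tested on simulated data. Named were, per comparison, prefix and direction, the 2 largest called changes measured in both groups and the largest lower bound, the widest replicate gaps, the 3 probes with most signal, the tissues' 2 furthest apart and probes called in all 3 comparisons. Pair partners, probes furthest apart between aorta and cultures and those so marked were named after their values were seen. The classes, bands and this rule were chosen with earlier results of these data known. Precision is limited by the few arrays, and differences between tissues have no error. No spot of these probes was saturated. Same-numbered replicates did not deviate together (correlations -0.26, 0.09 and -0.07).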

Additional observations from a re-analysis of the deposited data

How the results depend on the processing

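The lincRNA share of called probes stayed below that of all tested probes in each comparison under all 16 alternatives fitted (2.19% to 15.6% in the knockout, 2.19% to 12.7% with Myocd and 3.83% to 21.2% between them), and for MM9LINCRNAEXON alone in 15, 16 and 16. With Myocd the lincRNA share and that of all tested probes were close in the fits without either Myocd array. Some of the 16 alternatives are the same fit, as given above. The humanlincRNA and ASMM10UP classes had similarly low shares on the main scale. The counts moved more. The 32 knockout calls became 16 by normexp, 17 with the authors' log2 values, 16 with no filter on dim probes, 19 with only probes well above background on all 6 cultured arrays, 19 with only the 2 groups compared, 21 with array weights and 18 at a change of at least 2-fold, and 10 to 53 without 1 array. The 25 Myocd calls became 13 by normexp, 16 with no filter, 9 with only probes well above background on all 6 cultured arrays and 16 with array weights, and 13 to 43 without 1 array. The 41 calls between Myocd and the knockout became 25 by normexp, 23 with only probes above background on all 6, 69 with only the 2 groups compared, 72 with array weights and 24 at 2-fold, and 13 to 69 without 1 array. The cause of these shifts was not tested. The stricter filter left 242 lincRNA probes, and the share called fell as well as the count. It went from 9.44% to 7.85% in the knockout, from 7.37% to 3.72% with Myocd and from 12.1% to 9.5% between them. The share of all tested probes rose under the same filter, from 20.6% to 23.3%, from 15.2% to 17.2% and from 28.0% to 29.4%. Of lincRNA calls, 84.4% were rises in the knockout, 63.6% by quantile normalization, and 70.6% with the authors' values. Over all tested probes these shares were 59.3%, 51.7% and 50.9%, so calls of all probes also held fewer rises under both scalings. With Myocd the lincRNA share was 80.0% and 92.3% by normexp, and against the knockout 31.7% and 52.0%. Over all tested probes it was 52.6% with Myocd, where normexp gave 3951 rises and 3955 falls. Against the knockout it was 42.0% and, by normexp, 44.5%.

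Between aorta and liver, 67 probes passed 4-fold, 16 by normexp, and 221 passed 2-fold. The 26 between aorta and wild-type cells became 7 by normexp, 16 with the authors' values and 91 at 2-fold, and 27 to 28 without 1 wild-type array. Normexp was run on the median signals and added after seeing the data, and the version on mean signals was not run. With the replicate block the calls numbered 23, 21 and 42 in the 3 comparisons. The labels do not say whether shared replicate numbers pair the samples. With the scanner's less strict detection flag, 478 to 544 of the 732 probes passed on each array. No called change for which alternatives were computed reversed its direction, but some medians near 0 did under quantile normalization. These were the median of all tested probes in the knockout and that of the lincRNA probes with Myocd. Between aorta and wild-type cells the median of other probes reversed, while that of the lincRNA probes stayed above 0. The excess of lower calls between Myocd and the knockout was not kept by normexp.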
